A study of Mus musculus with 6 samples.

Results

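Sterol synthesis and sterol regulatory element-binding protein (SREBP) target genes were examined in the polyA RNA of mouse G1E-ER4 cells. The members were 8 genes listed by symbol, with no threshold on their values: Hmgcs1, Idi1, Fdps, Fdft1, Sqle, Lss, Cyp51 and Insig1. All 8 were among the 48709 genes of the count table, and 7 of them were among the 12722 genes with enough reads to be tested. The exception was Insig1, which had no read in any library.

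G1E-ER4 is a mouse model line of red cell precursors, of embryonic stem cell origin, in which GATA-1, the master transcription factor of the erythroid lineage, is expressed as a fusion with the hormone-binding part of the estrogen receptor. All 6 libraries came from this line, and all 6 received tamoxifen, which activates the fusion protein and starts erythroid differentiation. The 3 CHD4-APR libraries came from cells given 10 µM of a peptide holding the aggregation-prone stretch of the chromatin remodeler CHD4, joined to the Tat sequence that carries it into cells. The 3 CTRL libraries came from cells given 10 µM of a stretch of alanines joined to the same Tat sequence. The peptide was present for 2 h before tamoxifen, and RNA was taken after a further 28 h. The tamoxifen concentration was given as 100 nM in the growth protocol and as 100 µM in the description of the design. No untreated or undifferentiated library entered the comparison, and nothing stated whether the replicates were separate cultures. The p-values therefore measure only the spread between these libraries, which may be technical. The line was engineered to carry the drug-switched fusion protein, and levels of RNA in bulk samples cannot tell fewer cells of a kind from less RNA per cell.

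Cholesterol is built from acetyl-CoA through mevalonate, isopentenyl and farnesyl diphosphate, squalene and lanosterol, and the enzymes of this route sit largely at the endoplasmic reticulum. When sterols are low, the escort protein SCAP brings SREBP to the Golgi, where it is cut, and the freed fragment enters the nucleus and activates genes of synthesis and uptake. When sterols are plentiful, INSIG proteins hold SCAP back in the endoplasmic reticulum. Maturing red cells remodel a cholesterol-rich membrane while they lose their internal organelles.

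The depth was similar in both groups. The libraries held between 41687482 and 49784177 counts, and a count of 3, taken as the floor, corresponded to between 0.0608 and 0.0725 CPM (counts scaled to a common library size) per library. Of 14 erythroid markers, 12 were matched in the annotation and all 12 had more than 10 counts in every library. Their summed level was 71297 to 76592 CPM in CTRL and 60755 to 64854 CPM in CHD4-APR, so the groups did not overlap. Hemoglobin genes made up most of this sum, with Hbb-bs alone at a mean of 24751 CPM in CTRL and 19739 CPM in CHD4-APR. Of the 12, 3 were called higher (Gata1, Tfrc and Hemgn) and 5 lower (Klf1, Hba-a1, Hba-a2, Hbb-bt and Hbb-bs), beside 20.4% and 17.8% of all tested genes. With the correction for exonic length and GC content used below, 2 were higher and 2 lower, beside 13.9% and 12.6%. Of 19 markers of other blood and tissue cells, 11 had at most 3 counts in any library, and 6 of those, Mpo, Cd3e, Col1a1, Col1a2, Epcam and Alb, were at 0 throughout. Another 5 had more than 10 counts in every library, among them Itga2b (35.9 CPM in CTRL), Gp9 (11.4), Cd68 (4.91) and Csf1r (4.22). Of the 7 tested, 0 were called higher and 2 lower, Cd68 (log2 fold change -0.38) and Gp9 (-0.31). With the correction the counts were 0 and 0. The summed level of those 19 was 55.9 to 59.5 CPM in CTRL and 48.9 to 53.1 CPM in CHD4-APR. The part of the erythroid marker shift in the results below was not tested. Chd4 itself, whose protein and not transcript is the object of the peptide, stood at 227 to 237 CPM in CTRL and at 237 to 242 CPM in CHD4-APR.

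Promoter windows were examined because SREBP is known to act at short elements close to the start of its targets. The RefSeq promoter table used here (GRCm38.p6) matched 5 of the 8 members: Hmgcs1, Idi1, Lss, Cyp51 and Insig1. The 250 bases before the annotated start were searched on both strands for TCACNCCAC, a classical sterol regulatory element, for CCAAT, the NF-Y box, for GGGCGG, the GC box bound by Sp factors, and for TCACGTGA, an E-box form. The windows of Hmgcs1, the member with the largest rise, of Cyp51, a smaller rise, and of Lss, which was not called, are given from 5′ to 3′ on the strand of the gene. Those of Cyp51 and Lss stop where the first annotated exon begins. Capitals mark matches to the searched letters, and ATTGG and CCGCCC are CCAAT and GGGCGG read from the other strand. The Hmgcs1 window is chr13:119690101-119690350 on the plus strand, the Cyp51 window chr5:4104747-4104947 on the minus strand and the Lss window chr10:76531355-76531587 on the plus strand.
Hmgcs1: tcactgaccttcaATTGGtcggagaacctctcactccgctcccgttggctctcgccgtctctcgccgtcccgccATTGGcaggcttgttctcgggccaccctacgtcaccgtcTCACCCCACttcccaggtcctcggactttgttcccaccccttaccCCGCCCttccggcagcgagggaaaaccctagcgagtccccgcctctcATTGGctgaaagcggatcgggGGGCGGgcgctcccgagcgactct
Cyp51: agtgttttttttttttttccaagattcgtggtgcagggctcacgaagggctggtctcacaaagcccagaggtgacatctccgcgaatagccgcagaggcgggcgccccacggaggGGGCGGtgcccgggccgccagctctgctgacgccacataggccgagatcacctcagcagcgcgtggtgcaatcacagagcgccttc
Lss: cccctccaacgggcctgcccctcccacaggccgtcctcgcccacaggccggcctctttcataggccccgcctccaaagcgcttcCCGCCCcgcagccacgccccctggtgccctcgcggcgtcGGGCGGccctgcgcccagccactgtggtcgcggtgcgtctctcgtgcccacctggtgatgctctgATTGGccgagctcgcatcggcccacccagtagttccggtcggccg
The sterol element in the spelling searched, TCACNCCAC, was present in 1 of the 5 member windows. This was that of Hmgcs1, as TCACCCCAC from 137 to 129 bases before the start. It was present in 1.05% of 32851 mouse promoter windows of that length. Other spellings of the element were not searched, so a window without this match may still hold one. The NF-Y box was present in 5 of 5 member windows and in 33.8% of all windows, that of Cyp51 lying in the exonic end that is not printed, and the GC box in 5 of 5 and in 32.7%. No matches overlapped each other. The E-box form was present in 0 of 5 and in 0.785%. A match is a description of letters and says nothing of binding in these cells.

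Of the 7 members tested, 4 were higher and 1 was lower in CHD4-APR than in CTRL at an FDR under 0.05, where the FDR is the p-value of edgeR's quasi-likelihood test adjusted by Benjamini-Hochberg over all genes tested. Hmgcs1, Idi1, Sqle and Cyp51 rose, Fdft1 fell, and Fdps and Lss were not called. The same test called 20.4% of all tested genes higher and 17.8% lower, a wide background against which 4 and 1 of 7 must be read. In a fit of protein-coding genes only, 45.3% of 10100 genes were called, 2361 higher and 2215 lower. By mean level Fdps lay above 45.0% of tested genes, and the other tested members above 83.9% to 98.0%. No background of matched level was taken. Scaling by library totals alone moved the calls over all genes from 2601 higher and 2270 lower to 2959 higher and 1474 lower, and left the members at 4 higher and 1 lower. All changes but one were small, under 0.2 on the log2 scale. The median of the 7 log2 fold changes was 0.13, beside -0.01 over all tested genes. With each library corrected for exonic length and GC content, the members stood at 1 higher and 1 lower with a median of 0.01. The corrected shares over all tested genes were 13.9% higher and 12.6% lower. The levels in each library are shown in the plot of the members by library.

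**Figure D1:**
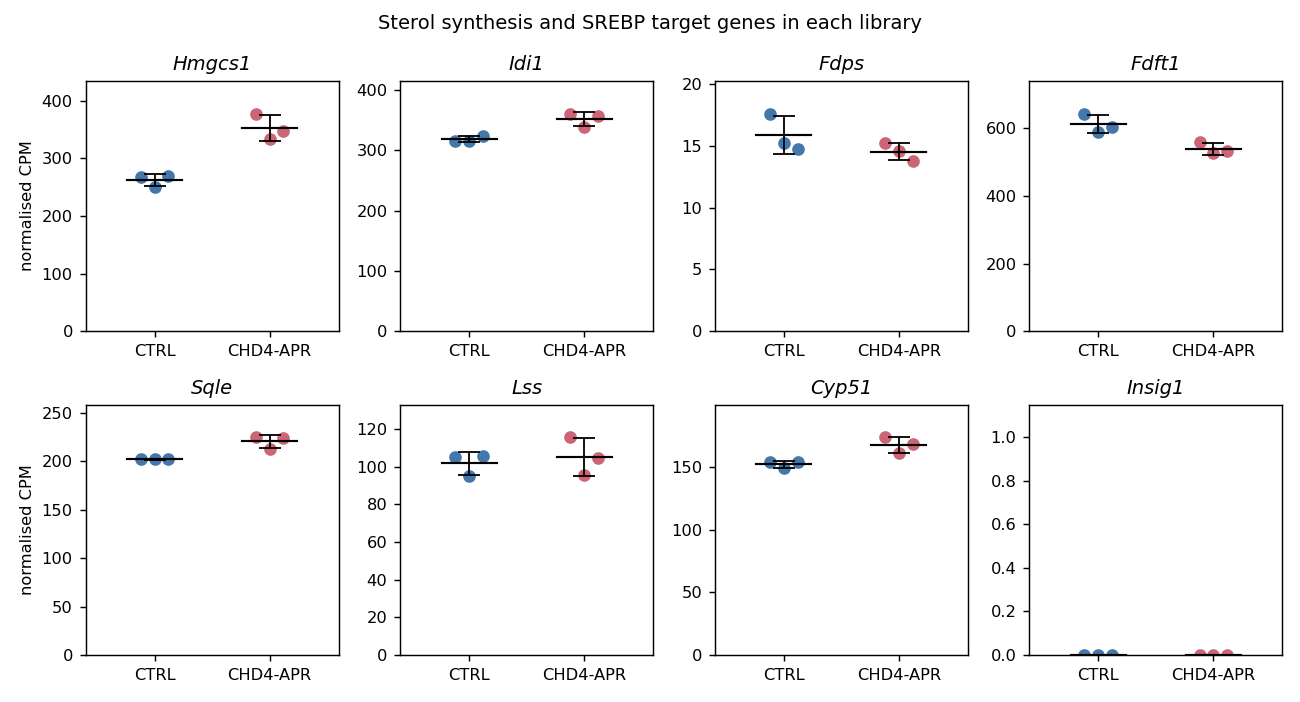
Normalised CPM of the 8 members, with 1 point per library (3 CTRL, 3 CHD4-APR), the mean as a horizontal line and the SD as error bars; each vertical axis starts at 0. The CHD4-APR points lie above every CTRL point for Hmgcs1, Idi1, Sqle and Cyp51 and below every CTRL point for Fdft1, the groups overlap for Fdps and Lss, and Insig1 is at 0 in all 6 libraries.

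Hmgcs1 (ENSMUSG00000093930, GRCm38 chr13:119690379-119708260, plus strand) encodes the cytosolic HMG-CoA synthase, an early enzyme of the mevalonate part of the route. It was measured at 267, 251 and 269 CPM in CTRL and at 377, 333 and 348 CPM in CHD4-APR. The lowest CHD4-APR library was thus well above the highest CTRL library. The log2 fold change was 0.43 (SE 0.050, n = 3 per group, edgeR FDR 9.24e-06), a rise of 34.4%, and 90.2% of tested genes had a lower fold change. It was the member with the largest change and stayed called under all 18 alternative settings, with log2 fold changes from 0.28 to 0.47. Of the 5 member windows searched, only its own held the sterol element in the spelling searched. The windows of Lbr and Hsd17b7, sterol synthesis genes outside the members that each rose by 0.51, held GC and NF-Y boxes only. Any part of the element in the rise was not tested. The library kit does not mark strand, and 557 exonic bases of Hmgcs1 and 323 of Idi1 lie opposite the annotated genes Gm48342 and Gm48574, for which the count table had no row.

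Idi1 (ENSMUSG00000058258, GRCm38 chr13:8885501-8892451, plus strand) encodes the isomerase that interconverts the isopentenyl and dimethylallyl diphosphates. It stood at 315, 316 and 324 CPM in CTRL and at 361, 340 and 357 CPM in CHD4-APR. The groups did not overlap, but the step between them was narrow. Idi1 differed by 0.15 on the log2 scale (SE 0.042, edgeR FDR 0.0107). With each library's level corrected for exonic length and GC content it was 0.01 (edgeR FDR 0.826), so the call was lost.

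Fdps (ENSMUSG00000059743, GRCm38 chr3:89093588-89101959, minus strand) encodes farnesyl diphosphate synthase, the last enzyme before sterols part from other isoprenoids. It had 17.6, 15.2 and 14.8 CPM in CTRL and 15.2, 14.6 and 13.8 CPM in CHD4-APR, and the groups overlapped. Its log2 fold change was -0.13 with a 95% interval from -0.30 to 0.04 (edgeR FDR 0.237), and no alternative called it. Without CTRL 1 it was -0.05. Of its 4208 exonic bases, 1124 are shared on the same strand with the read-through gene Gm43738, which was listed at 0 in all 6 libraries, so its level is uncertain.

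Fdft1 (ENSMUSG00000021273, GRCm38 chr14:63145150-63179578, minus strand) encodes squalene synthase, the enzyme that commits farnesyl diphosphate to sterols. It was at 643, 590 and 605 CPM in CTRL and at 559, 526 and 534 CPM in CHD4-APR. All CHD4-APR libraries were below all CTRL libraries, the opposite order from Hmgcs1. The log2 fold change was -0.18 (SE 0.045, edgeR FDR 0.00447), a change of -11.9%, and it stayed called lower under all 18 alternatives. Of its exonic bases 774 are also exonic in Ctsb on the opposite strand. Ctsb stood at 1709 CPM in CTRL and 1606 CPM in CHD4-APR (log2 fold change -0.09, edgeR FDR 0.107).

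Sqle (ENSMUSG00000022351, GRCm38 chr15:59315077-59331192, plus strand) encodes squalene epoxidase, which performs the first oxygenation of the route. It was at 202, 203 and 202 CPM in CTRL, the tightest group of any member, and at 225, 213 and 224 CPM in CHD4-APR. The groups did not overlap. The log2 fold change was 0.13 (SE 0.042, edgeR FDR 0.0247). The call was lost with the length and GC correction (edgeR FDR 0.0904), with upper quartile scaling (0.0512), and without CTRL 3 (0.0811), CHD4-APR 1 (0.0801) or CHD4-APR 3 (0.0830), while the log2 fold change stayed positive under all 18 settings and was 0.12 in each of those 3 fits with a library left out.

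Lss (ENSMUSG00000033105, GRCm38 chr10:76531588-76557138, plus strand) encodes lanosterol synthase, which closes the sterol rings. It was at 105, 94.8 and 105 CPM in CTRL and at 116, 95.6 and 105 CPM in CHD4-APR, and the groups overlapped. Its log2 fold change was 0.05 with a 95% interval from -0.08 to 0.18 (edgeR FDR 0.577). The sign turned with the length and GC correction (-0.10), without CTRL 2 (-0.00113) and without CHD4-APR 1 (-0.02). With the correction and the replicate number as a block Lss was called lower (-0.10, edgeR FDR 0.0452).

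Cyp51 (ENSMUSG00000001467, GRCm38 chr5:4081145-4104746, minus strand) encodes lanosterol demethylase, the enzyme that starts the conversion of lanosterol to cholesterol. It was at 154, 149 and 154 CPM in CTRL and at 173, 161 and 168 CPM in CHD4-APR, with no overlap. Cyp51 rose by 0.14 on the log2 scale (SE 0.044, edgeR FDR 0.0182). The call was lost with the length and GC correction (edgeR FDR 0.178) and without CTRL 2 (0.0503), CTRL 3 (0.0503), CHD4-APR 1 (0.0817) or CHD4-APR 3 (0.0507). The log2 fold change was 0.08 with the correction and 0.12 to 0.15 in the 4 fits with a library left out. Its exons share 166 bases with Akap9 on the opposite strand, and Akap9 was also higher (log2 fold change 0.17, edgeR FDR 0.0110).

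Insig1 (ENSMUSG00000045294, GRCm38 chr5:28071363-28078662, plus strand) encodes the endoplasmic reticulum protein that retains SCAP, and is itself an SREBP target. It was listed at 0 in all 6 libraries. The widely expressed genes Hexa, for a lysosomal enzyme, and Mrpl53, for a mitochondrial ribosomal protein, were also listed at 0 in all 6 libraries, and were looked up after their values were seen. No statement on Insig1 expression was drawn from the zeros. Insig2, its paralog, was measured at 35.5 CPM in CTRL and at 35.8 CPM in CHD4-APR (log2 fold change 0.01, edgeR FDR 0.904).

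By the exact order of the libraries, 4 of the 7 tested members had every CHD4-APR library above every CTRL library and 1 had every one below. Among all tested genes 25.0% were ordered the first way and 25.0% the second. Library CHD4-APR 1 was the highest of its group for 7 of 7 members, and CHD4-APR 2 the lowest for 6. The summed level of the members was 1705, 1618 and 1674 CPM in CTRL and 1827, 1683 and 1750 CPM in CHD4-APR. The sums overlapped, with means of 1666 ± 43.7 and 1753 ± 71.9 CPM (SD, n = 3), a ratio of 1.05. The ratio of Hmgcs1 to Fdft1 counts within a library, which does not depend on library scaling, was 0.416, 0.426 and 0.445 in CTRL and 0.675, 0.633 and 0.651 in CHD4-APR.

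Per kilobase of exon, the CTRL order of mean levels was Fdft1 (145 CPM per kb), Idi1 (90.9), Hmgcs1 (57.1), Sqle (36.5), Cyp51 (34.4), Lss (9.44) and Fdps (3.77). The order depends on the annotation, since the length was the union of all annotated exons. It was 10787 bases for Lss against 3505 for Idi1, and 1124 of the 4208 bases of Fdps are shared with Gm43738. No neighbours in that order had overlapping libraries in CTRL. In CHD4-APR the order of the libraries was kept except for Sqle, at 38.4 to 40.5 CPM per kb, and Cyp51, at 36.5 to 39.3, which overlapped. Fdft1, the highest member, and Hmgcs1, the third, moved toward each other, from 139.5 to 152 against 54.6 to 58.6 in CTRL to 124 to 132 against 72.5 to 82.2 in CHD4-APR.

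The remaining 15 enzymes and accessory proteins of cholesterol synthesis were all tested, and 5 were higher and 7 lower, beside 20.4% and 17.8% of all tested genes. Together with the 7 tested members this made 22 genes, of which 9 rose, 8 fell and 5 were not called, so that the route did not move one way. With library totals as the scaling the 15 gave 5 higher and 3 lower. Every library of one group lay beyond every library of the other for 9 of the 22 in the higher and 7 in the lower direction, beside 25.0% of all tested genes in each. The median log2 fold change of the 22 was -0.02.

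**Figure D2:**
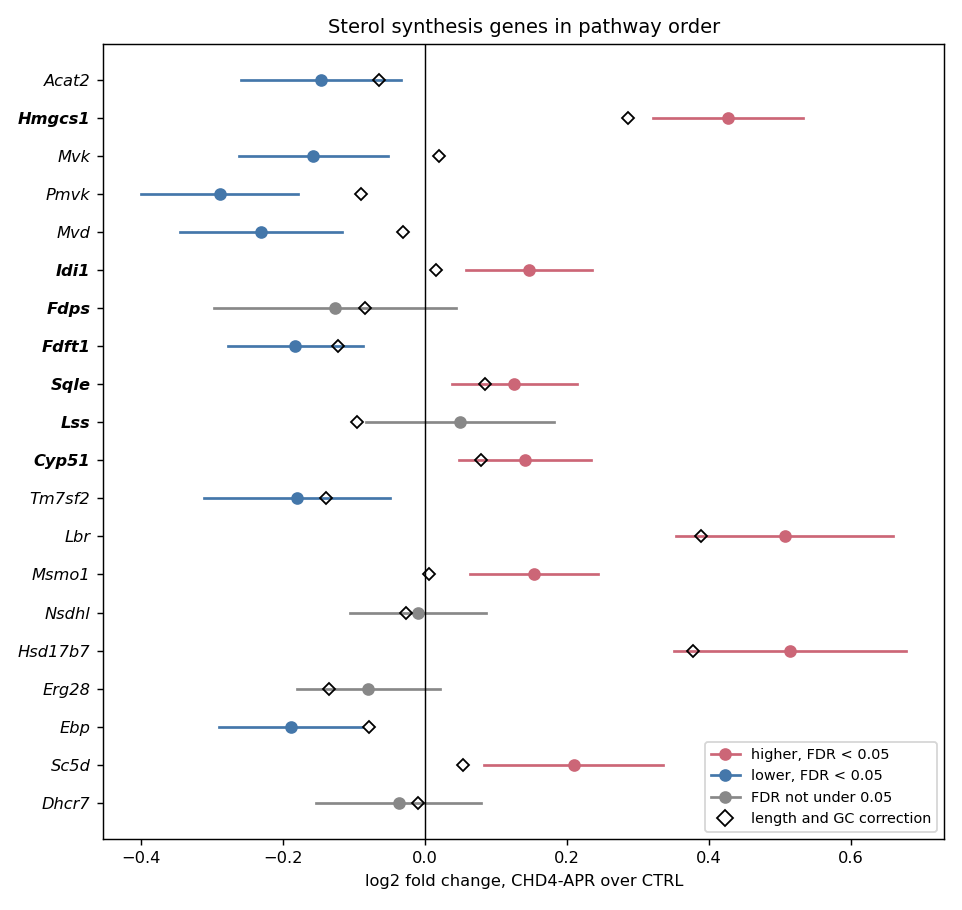
Log2 fold change of CHD4-APR over CTRL (horizontal axis) for 20 of the 22 tested sterol synthesis genes in pathway order, members in bold; filled circles are estimates with 95% intervals and open diamonds the values corrected for exonic length and GC content. Hmgcs1, Lbr and Hsd17b7 stand furthest to the right, and Mvk, Pmvk and Mvd are all on the left but lie nearer to 0 after the correction.

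At the entry of the route, Acat2, the cytosolic thiolase that joins acetyl-CoA units, had 158, 142 and 148 CPM in CTRL and 143, 126 and 136 CPM in CHD4-APR (log2 fold change -0.15, edgeR FDR 0.0388), with overlapping groups. The 3 enzymes that turn mevalonate into isopentenyl diphosphate all fell. Mevalonate kinase, Mvk, changed by -0.16 on the log2 scale (edgeR FDR 0.0191), phosphomevalonate kinase, Pmvk, by -0.29 (edgeR FDR 4.09e-04) and the decarboxylase Mvd by -0.23 (edgeR FDR 0.00296). Neither Acat2 (-0.06, edgeR FDR 0.347) nor any of these 3 was called after the length and GC correction, and Mvk then stood at 0.02. The calls of Acat2 and Mvk were also lost with library totals and without CTRL 1, CTRL 3, CHD4-APR 2 or CHD4-APR 3, at edgeR FDRs of 0.0877 to 0.247 for Acat2, which stood at -0.0963 without CHD4-APR 2, and of 0.0510 to 0.0891 for Mvk.

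Beyond lanosterol, 2 enzymes reduce the same double bond of the sterol ring. Lbr, which is also an inner nuclear membrane protein, was at 166, 218 and 193 CPM in CTRL and at 259, 288 and 272 CPM in CHD4-APR. Its rise was 0.51 on the log2 scale (SE 0.072, edgeR FDR 5.42e-05). Tm7sf2, the endoplasmic reticulum counterpart, was at 32.4, 29.9 and 33.3 CPM in CTRL and at 27.4, 29.5 and 27.5 CPM in CHD4-APR (log2 fold change -0.18, edgeR FDR 0.0304). The Tm7sf2 call was lost with the length and GC correction (-0.14, edgeR FDR 0.0867), with library totals (0.114) and without CTRL 1 (0.0558), CTRL 3 (0.135), CHD4-APR 1 (0.108) or CHD4-APR 3 (0.114). The ratio of Lbr to Tm7sf2 counts was 5.12, 7.27 and 5.80 in CTRL and 9.47, 9.77 and 9.90 in CHD4-APR. The annotated Tm7sf2 locus overlaps Vps51 on the same strand, so its level is uncertain.

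Of the enzymes that demethylate and reduce the ring, Hsd17b7 was at 17.4, 21.2 and 20.4 CPM in CTRL and at 28.4, 29.7 and 26.3 CPM in CHD4-APR (log2 fold change 0.51, edgeR FDR 8.95e-05). Msmo1, the methylsterol oxidase, rose by 0.15 (edgeR FDR 0.00946), whereas its partners Nsdhl (-0.01, edgeR FDR 0.888) and the scaffold Erg28 (-0.08, edgeR FDR 0.205) were not called. Among the final enzymes, the desaturase Sc5d rose by 0.21 (edgeR FDR 0.0105). The isomerase Ebp changed by -0.19 (edgeR FDR 0.00500), and Dhcr7 was not called (-0.04, edgeR FDR 0.632). The calls of Msmo1 (0.0057, edgeR FDR 0.935), Sc5d (0.05, edgeR FDR 0.550) and Ebp (-0.08, edgeR FDR 0.169) were lost with the length and GC correction. Msmo1 was also not called without CHD4-APR 1 (edgeR FDR 0.0554), nor Sc5d without CTRL 3 (0.0564) or CHD4-APR 2 (0.0521).

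The direction of the 22 genes went with their base composition. The 9 that rose had a GC content of 41.9% to 48.6% in their longest transcript, with a median of 44.2%, and the 8 that fell had 49.6% to 59.0%, with a median of 54.1%. The ranges did not overlap. The rising genes were also longer, with a median of 4866 exonic bases against 2610 for the falling ones. Across the 22 genes, which share the same 6 libraries, Pearson's r between log2 fold change and GC content was -0.787 and Spearman's rho -0.858, and r was -0.399 across all tested genes. Genes are not independent replicates, and the values are a description.

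**Figure D3:**
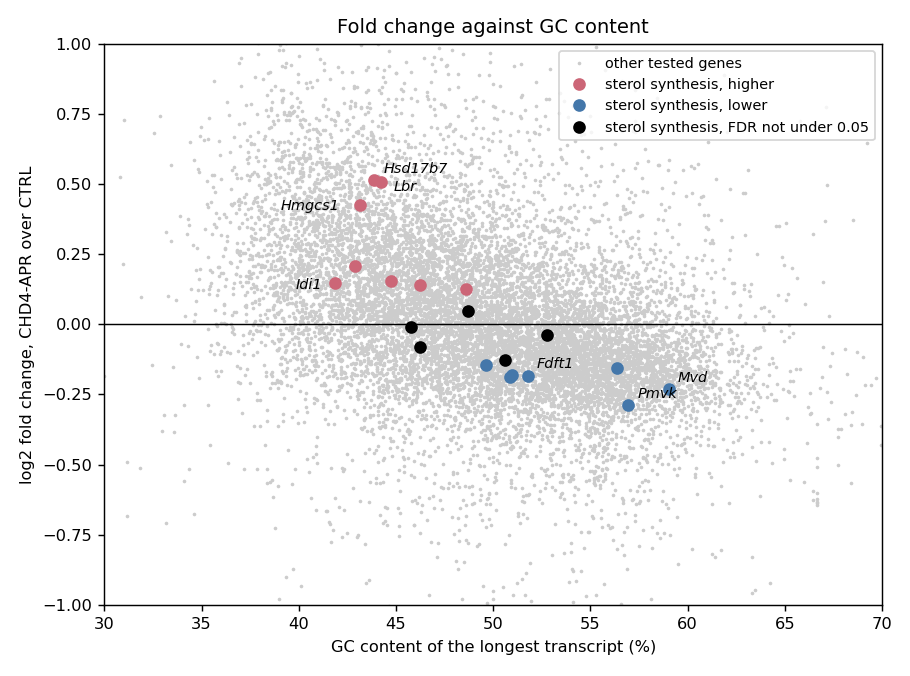
Log2 fold change of CHD4-APR over CTRL (vertical axis) against GC content of the longest transcript in percent (horizontal axis) for all tested genes (grey) and 20 of the 22 sterol synthesis genes (coloured by call); 206 of 12722 genes lie outside the axes or have no GC value. The rising sterol genes lie at 41.9% to 48.6% GC and the falling ones at 49.6% to 59.0%.

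With each library's log2 CPM corrected for exonic length and GC content, 1 of the 7 members was higher (Hmgcs1, 0.29, edgeR FDR 6.93e-04) and 1 lower (Fdft1, -0.12, edgeR FDR 0.0219). The corrected background was 13.9% higher and 12.6% lower. Of the 22 genes, 4 were then higher, among them Hmgcs1, Lbr (0.39) and Hsd17b7 (0.38), and 2 lower, Fdft1 and Erg28 (-0.14). Across the 22 genes r with GC content was -0.507 after the correction. Whether the composition trend arose in the libraries or in the cells was not tested.

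Of 15 genes that control SREBP processing or turnover, all tested, 5 were higher and 1 lower, with a median log2 fold change of 0.07 (0.0085 with the length and GC correction). The shares over all tested genes were 20.4% higher and 17.8% lower. Srebf2, the SREBP that chiefly serves sterol synthesis, was at 686, 638 and 673 CPM in CTRL and at 715, 700 and 685 CPM in CHD4-APR. Its groups overlapped (log2 fold change 0.07, 95% interval -0.02 to 0.16, edgeR FDR 0.202), although it passed the threshold with the length and GC correction (0.12, edgeR FDR 0.0110) and with library totals (0.12, edgeR FDR 0.0314). Srebf1 (-0.06, edgeR FDR 0.341) and Scap (-0.08, edgeR FDR 0.355) were not called, and Srebf1 stood at 0.03 after the correction. Mbtps2, the membrane protease that makes the second cut in SREBP, was at 9.21, 11.1 and 11.2 CPM in CTRL and at 15.6, 18.6 and 15.6 CPM in CHD4-APR (log2 fold change 0.66, edgeR FDR 5.28e-05), and its locus overlaps Yy2 on the same strand. The ubiquitin ligase Marchf6 (0.41, edgeR FDR 1.95e-05), which degrades squalene epoxidase, rose, as did the kinase Gsk3b (0.37, edgeR FDR 8.43e-05). With the length and GC correction Mbtps2 stood at 0.32, Marchf6 at 0.20 and Gsk3b at 0.18, all still called. The list then stood at 5 higher and 2 lower, beside 13.9% and 12.6% of all tested genes. Aup1, a lipid droplet protein that recruits a ubiquitin-conjugating enzyme, was the 1 that fell (-0.26, edgeR FDR 2.55e-04), and with the length and GC correction it was not called (-0.09, edgeR FDR 0.0511).

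Of 21 genes of sterol uptake, storage and efflux, 16 were tested, 4 were higher and 4 lower, beside 20.4% and 17.8% of all tested genes. Abca1, which exports cholesterol, was at 6.89, 8.77 and 9.13 CPM in CTRL and at 15.1, 14.2 and 13.2 CPM in CHD4-APR, the largest rise among the named genes (0.78, edgeR FDR 2.21e-05). Soat1, which esterifies cholesterol for storage (0.53, edgeR FDR 0.00179), and Stard4, a carrier of sterol between membranes (0.26, edgeR FDR 3.38e-04), also rose. Nr1h2, a sterol-sensing nuclear receptor (-0.21, edgeR FDR 0.00232), and Stard3, a late endosomal sterol carrier (-0.20, edgeR FDR 0.00472), fell. With the length and GC correction the calls of Soat1 (0.29, edgeR FDR 0.0665), Nr1h2 (-0.05, edgeR FDR 0.325) and Stard3 (-0.06, edgeR FDR 0.356) were lost, and Stard4 stood at 0.11 (edgeR FDR 0.0368). Vldlr, Lipa, Osbpl5 and Abcg1 were among the 5 not tested.

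The isoprenoid branches that leave the route at or before farnesyl diphosphate had 3 of 12 genes higher and 1 lower, beside 20.4% and 17.8% of all tested genes. Pggt1b, a subunit of a protein geranylgeranyl transferase, was at 27.2, 35.3 and 34.0 CPM in CTRL and at 48.8, 52.5 and 49.3 CPM in CHD4-APR (0.64, edgeR FDR 1.27e-05). Ggps1, which makes geranylgeranyl diphosphate, rose by 0.27 (edgeR FDR 4.90e-04) and Nus1, of dolichol synthesis, by 0.23 (edgeR FDR 0.0132), while Fntb, a farnesyl transferase subunit, fell (-0.21, edgeR FDR 0.00100) and overlaps Churc1 on the same strand. Dhdds, the partner of Nus1, was not called (-0.13, edgeR FDR 0.0595). With the length and GC correction Pggt1b (0.32) was the 1 gene of this list still called, and Ggps1 stood at 0.06 and Nus1 at 0.07. Over all tested genes that correction gave 13.9% higher and 12.6% lower. Nus1 was also not called without CTRL 3 (edgeR FDR 0.0721) or CHD4-APR 3 (0.0560). Dhdds was called lower without CTRL 2 (edgeR FDR 0.0394), with upper quartile scaling (0.0355), with protein-coding genes only (0.0359) and with the replicate block (0.0483).

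The fatty acid genes that SREBP also serves had 6 of 16 tested genes higher and 0 lower, beside 20.4% and 17.8% of all tested genes, with a median of 0.21. Fasn (0.0089, edgeR FDR 0.896), Acaca (0.02, edgeR FDR 0.736), Acss2 (0.0065, edgeR FDR 0.938) and Elovl6 (0.01, edgeR FDR 0.906) were not called. The median also covers genes with few reads, such as Scd1 (0.56, not called) at 0.165 to 0.678 CPM. By edgeR, DESeq2 and limma-voom alike 0 genes were called lower, and by edgeR 1 gene, Fads1, was lower at an unadjusted p under 0.05 and was called lower with upper quartile scaling. Acly, which supplies cytosolic acetyl-CoA to both fatty acids and sterols, was at 331, 351 and 351 CPM in CTRL and at 421, 411 and 394 CPM in CHD4-APR (0.25, edgeR FDR 3.35e-04). The desaturase Scd2, the most abundant gene of this list, rose by 0.21 (edgeR FDR 0.00526) and the elongase Elovl5 by 0.21 (edgeR FDR 0.00302). The phosphatidate phosphatase Lpin1 rose by 0.27 (edgeR FDR 0.00140) and the acyl-CoA synthetase Acsl3 by 0.36 (edgeR FDR 0.00207). Acsl3 overlaps Utp14b on the same strand. These 5 were also called higher with the length and GC correction, where Lpin1 stood at 0.17 and Acsl3 at 0.23. Under that correction 7 of the 16 were higher and 2 lower, beside 13.9% and 12.6% of all tested genes. The 2 lower were Acaca (-0.18, edgeR FDR 0.00476) and Acss2 (-0.15, edgeR FDR 0.0377). Thrsp and Pnpla3 were not tested.

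**Figure D4:**
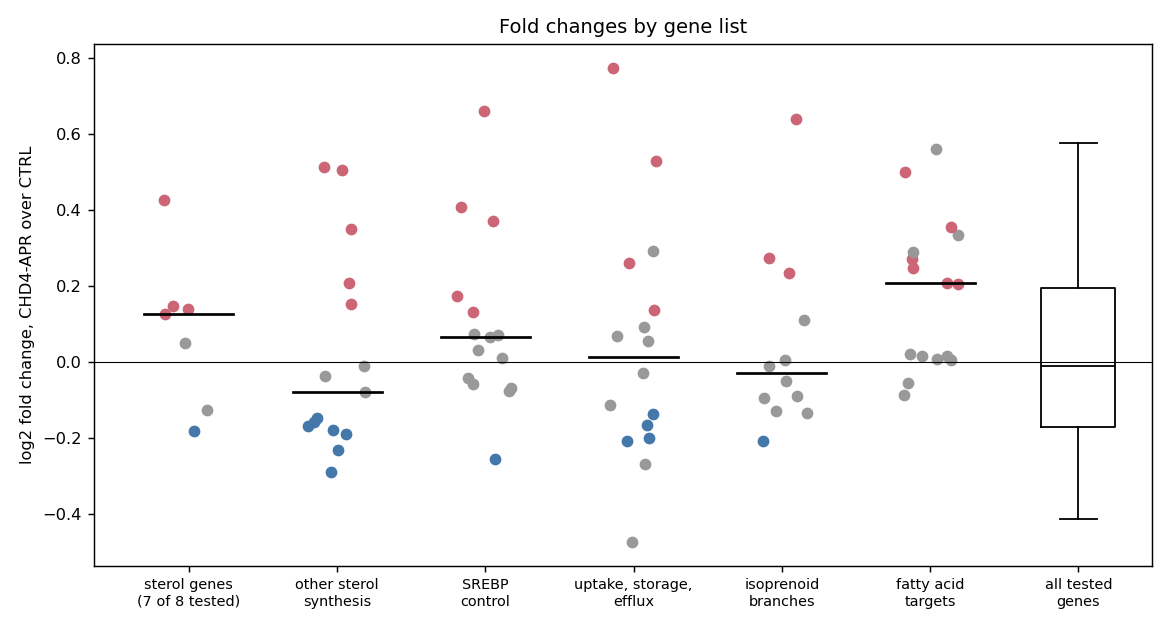
Log2 fold change of CHD4-APR over CTRL (vertical axis) for every tested gene of 6 lists, red where higher and blue where lower at an edgeR FDR under 0.05 and grey otherwise, with the list median as a black line; the box at the right gives the quartiles of all 12722 tested genes and its whiskers the central 90%. The medians are 0.13 for the members, -0.08 for the other sterol synthesis genes and 0.21 for the fatty acid targets.

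The genes outside these lists whose levels over the 6 libraries were most like the mean Z-score of the 7 tested members, among 9802 with a mean of at least 1 on the log2 CPM scale, were Shc1 (Pearson's r 0.994), Ptpra (0.992), Gab2 (0.989), Pex26 (0.988) and Ttc19 (0.988). Of these 5 genes Gab2 was called, at 0.26 (edgeR FDR 0.0342), and Shc1 differed by 0.08 (edgeR FDR 0.174). The likeness is over 6 libraries only and carries no test.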

How the data were processed

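Gene counts were deposited by the authors as whole reads per Ensembl gene, not normalised. Per the labels and the study's methods, the polyA libraries (TruSeq RNA v2) were trimmed with cutadapt, aligned to GRCm38 with STAR 2.7.10a and counted with featureCounts; versions come from the submitters' processing notes. The table held 2 further columns that were not used. Gene names, exonic lengths and GC content came from GENCODE M21 (GRCm38), which matched 48349 of 48709 genes. Groups followed the labels (CHD4-APR and CTRL, n = 3 each).

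Counts were filtered with filterByExpr, scaled by TMM and tested with edgeR 4.0.16 (R 4.3.3) by the quasi-likelihood F-test, with an FDR threshold of 0.05 over 12722 genes. CPM are TMM-normalised. DESeq2 1.42.0, limma-voom (limma 3.58.1), other scalings and filters, a replicate block, leaving out each library, and offsets for exonic length and GC content (mgcv 1.9.3) were alternatives. The procedure was tested on simulated data with planted changes larger than those of the members, so that test does not bear on changes of their size.

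The members and lists were chosen with earlier results of these data known, so no p-value was given for a list. Named genes were all 8 members, all other sterol synthesis genes, the 5 with the lowest FDR in each further list plus Srebf1, Srebf2, Scap and 1 uptake gene, and the 5 genes most correlated with the members. Cell type markers and a few other genes of the lists were named besides. Some genes that the rule names are not reported here, although the counts over lists include them.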

Additional observations from a re-analysis of the deposited data

How the results depend on the processing

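DESeq2, limma-voom, the other scalings and filters, and the replicate block left the members at 4 or 5 calls. The length and GC correction moved the members called from 5 to 2 (3 with the replicate block), the other sterol synthesis genes from 12 to 4 (4 with the block), the uptake, storage and efflux genes from 8 to 5 (7 with the block), the isoprenoid genes from 4 to 1 (2 with the block), the SREBP control genes from 6 to 7 (8 with the block), the fatty acid genes from 6 to 9 (9 with the block), and the members' median log2 fold change from 0.126 to 0.0149 (0.0145 with the block). Leaving out 1 library at a time, with fewer samples in each fit, gave 3 to 5 members (3 without CTRL 3, CHD4-APR 1 or CHD4-APR 3) and 7 to 12 other sterol synthesis genes (7 without CTRL 3, 8 without CHD4-APR 2 or CHD4-APR 3). In those fits 28.6% to 38.1% of all tested genes were called, against 38.3% in the main fit. Under the correction, without and with the block, Lss was at -0.0952 and -0.0979, Mvk at 0.0202 and 0.0203, and Srebf1 at 0.0253 and 0.0246. With library totals Nsdhl was at 0.0354 and Dhcr7 at 0.00855. Leave-one-out values ranged from -0.0203 to 0.116 for Lss, from -0.0272 to 0.00692 for Nsdhl and from -0.0777 to 0.0149 for Dhcr7. The cause was not tested.

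Same-numbered libraries of the groups did not deviate together over genes (r = 0.07, 0.06 and -0.03 for numbers 1, 2 and 3), so the numbers were not taken as pairs. The replicate block alone called 5 members and 5214 genes, against 5 and 4871 without it. The floor of 3 counts covers counting error only.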
